A study of Mus musculus with 6 samples.

Results

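The Sprouty, Spred and ERK phosphatase genes described here are 9 of the 54532 genes in the deposited tables, chosen by symbol: Spry1, Spry2 and Spry4, Spred1, Spred2 and Spred3, and Dusp4, Dusp5 and Dusp6. They were measured by poly(A) RNA sequencing in TM3, a line derived from mouse Leydig cells, the testicular cells that make testosterone. The control group was 3 libraries from TM3 cells given 0.1‰ dimethyl sulfoxide (DMSO), and the treated group was 3 libraries from TM3 cells given 100 nM pyrotinib, all taken at 48 h. Pyrotinib is an irreversible inhibitor of the ErbB family receptor kinases EGFR, HER2 and HER4, and the study concerned its toxicity to the male reproductive system. No genetic change was named for either group, both came from the same cell line, and the labels do not say whether the replicates were separate cultures, so a p-value here reflects the variation among these libraries, which may be technical.

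Growth factor receptors switch on RAS, which activates RAF, MEK and ERK kinases in turn, and ERK induces the genes that then restrain it. Sprouty proteins act near the receptor and RAF, Spred proteins bring the RAS-inactivating protein neurofibromin to the membrane, and the dual-specificity phosphatases of this group remove the activating phosphates from ERK itself. Sprouty and Spred proteins share a cysteine-rich C-terminal domain. Because many of these genes are transcribed in response to ERK, their mRNAs are widely used as a readout of the pathway.

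Library totals ran from 15005737 to 16171030 counts, and all 9 genes passed the filter on low counts. On the first principal component, DMSO replicate 2 lay at -23.0, against -9.84 and -12.0 for DMSO replicates 1 and 3. Pyrotinib replicates 1 and 3 carried a trend by transcript GC content, with slopes of -0.23 and -0.27 log2 units per 10 percentage points, against 0.00 in pyrotinib replicate 2 and -0.01 to 0.02 in DMSO. The mitochondrial share of counts was 2.03% to 2.16% with DMSO and 3.49%, 2.70% and 3.60% in pyrotinib replicates 1, 2 and 3, so it was higher in every treated library and highest where the GC trend was; its part in the results was not tested. Values of the 9 genes with a GC correction or without the libraries that stand apart are given with each called gene or in the plot of alternative fits. The fit of pyrotinib replicate 2 alone has 1 treated library, so it takes its spread from the DMSO libraries and assumes that the lone library varies as they do. Of 8 Leydig cell markers, Hsd3b6 and Lhcgr had 0 reads. Cyp11a1, Cyp17a1, Nr5a1 and Hsd3b1 had 19, 17, 10 and 2 reads over the 6 libraries. Only Star and Insl3 passed the filter on low counts, and neither was called in edgeR (adjusted p = 0.168 and 0.332). The summed level of the list was 4.37 to 5.50 CPM with DMSO and 6.14 to 7.55 with pyrotinib, so the label rests on few reads of its defining genes. CPM here is a read count per unit of library size, with libraries scaled by the trimmed mean of M-values (TMM). Of the markers of other testicular cells, the 5 Sertoli cell genes summed to 0 to 0.200 CPM with DMSO and 0.188 to 0.384 with pyrotinib. The 3 germ cell genes summed to 0.400 to 0.873 and 0.553 to 1.41 CPM, the 4 macrophage genes to 2.67 to 3.99 and 2.64 to 3.45, and the 3 endothelial genes to 0.749 to 1.47 and 1.22 to 1.82. The 3 peritubular myoid genes, mostly Acta2, summed to 76.3 to 85.7 and 71.8 to 82.9. Their part in the results was not tested.

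The promoters of the genes that moved are shown first, since Spry1 and Dusp6 fell with pyrotinib and Spred1 and Spred2 rose. They are the 250 bases before the transcription start in RefSeq (build GRCm38.p6, which is mm10), 5′ to 3′ on the strand of the gene, at chr3:37639697-37639946, chr10:99262981-99263230, chr2:117120821-117121070 and chr11:19924192-19924441, all on the plus strand. RefSeq starts are not always the gene starts of the deposited tables. The Spry1 and Dusp6 windows end just before the deposited starts at 37639947 and 99263231. The Spred1 window ends short of the deposited start at 117121374, and the Spred2 window runs past the deposited start at 19924375. Capitals mark the GC-box motif bound by SP and KLF factors.
Spry1: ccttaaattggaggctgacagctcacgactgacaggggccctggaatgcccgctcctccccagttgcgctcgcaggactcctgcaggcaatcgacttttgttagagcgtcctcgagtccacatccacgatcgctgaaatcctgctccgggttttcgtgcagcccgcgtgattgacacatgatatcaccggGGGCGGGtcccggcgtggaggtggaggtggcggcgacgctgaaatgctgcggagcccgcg
Dusp6: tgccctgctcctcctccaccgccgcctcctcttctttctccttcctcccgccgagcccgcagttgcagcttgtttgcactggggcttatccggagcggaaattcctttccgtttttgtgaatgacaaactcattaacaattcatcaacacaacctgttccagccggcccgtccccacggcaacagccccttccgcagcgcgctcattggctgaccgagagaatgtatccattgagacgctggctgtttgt
Spred1: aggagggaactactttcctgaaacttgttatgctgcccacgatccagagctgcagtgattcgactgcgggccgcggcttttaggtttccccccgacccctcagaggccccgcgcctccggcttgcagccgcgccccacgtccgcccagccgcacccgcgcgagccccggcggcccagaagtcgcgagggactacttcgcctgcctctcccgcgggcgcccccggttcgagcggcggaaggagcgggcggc
Spred2: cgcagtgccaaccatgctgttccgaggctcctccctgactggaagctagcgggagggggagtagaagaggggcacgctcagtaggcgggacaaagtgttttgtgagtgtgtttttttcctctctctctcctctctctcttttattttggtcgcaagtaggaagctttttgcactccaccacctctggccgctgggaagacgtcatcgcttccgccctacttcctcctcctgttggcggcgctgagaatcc
RefSeq promoters were matched for 7 of the 9 genes, all but Spry4 and Dusp4. They were searched on both strands for the ETS motif CCGGAAG, the AP-1 motif TGANTCA, the cyclic AMP response element TGACGTCA, the FOXO motif TTGTTTAC and the GC box GGGCGGG, counting a palindromic match once. Only the GC box was found, once in Spry1 at 60 to 54 bases before the start, once in Dusp5 and at 2 places in Spred3. The Dusp5 window (chr19:53528895-53529144) runs past the deposited gene start at 53529109. The Spred3 window (chr7:29168648-29168897, minus strand) lies inside the deposited gene, 29158829 to 29170411, so its 2 matches are not upstream of that start. The share of all 32851 promoters in the table that hold it was 23.4%, against 6.91% for the ETS motif, 6.75% for AP-1, 1.55% for the cyclic AMP element and 1.07% for FOXO. The 7 windows held 55.6% to 70.8% GC, where the median over all promoters was 52.4%, and Spred1 had the highest GC content of the 7.

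With pyrotinib, the 2 Sprouty genes and the 1 ERK phosphatase gene that passed the test were lower, and the 2 Spred genes that passed were higher. The Sprouty genes Spry1 and Spry4 fell 1.60-fold and 1.61-fold, the Spred genes Spred2 and Spred1 rose 1.44-fold and 1.30-fold, and the ERK phosphatase gene Dusp6 fell 1.24-fold. Spry2, Spred3, Dusp4 and Dusp5 did not pass the test. The Spred1 call was lost with the GC correction (adjusted p = 0.067 by edgeR), and the Dusp6 call held in 2 of the 6 fits that left out 1 library. In all, 3 of 9 genes were lower and 2 higher at an adjusted p under 0.05 in edgeR's quasi-likelihood test, where 12.8% of the 14125 genes tested were lower, 13.2% higher and 26.0% called in either direction. CPM ranges of the groups did not overlap for 6 of the 9 genes, against 40.9% of all genes tested. The median log2 fold change over the 9 genes was -0.02, and over all genes tested 0.00. In these bulk samples, fewer cells of a kind and less RNA per cell cannot be told apart.

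**Figure D1:**
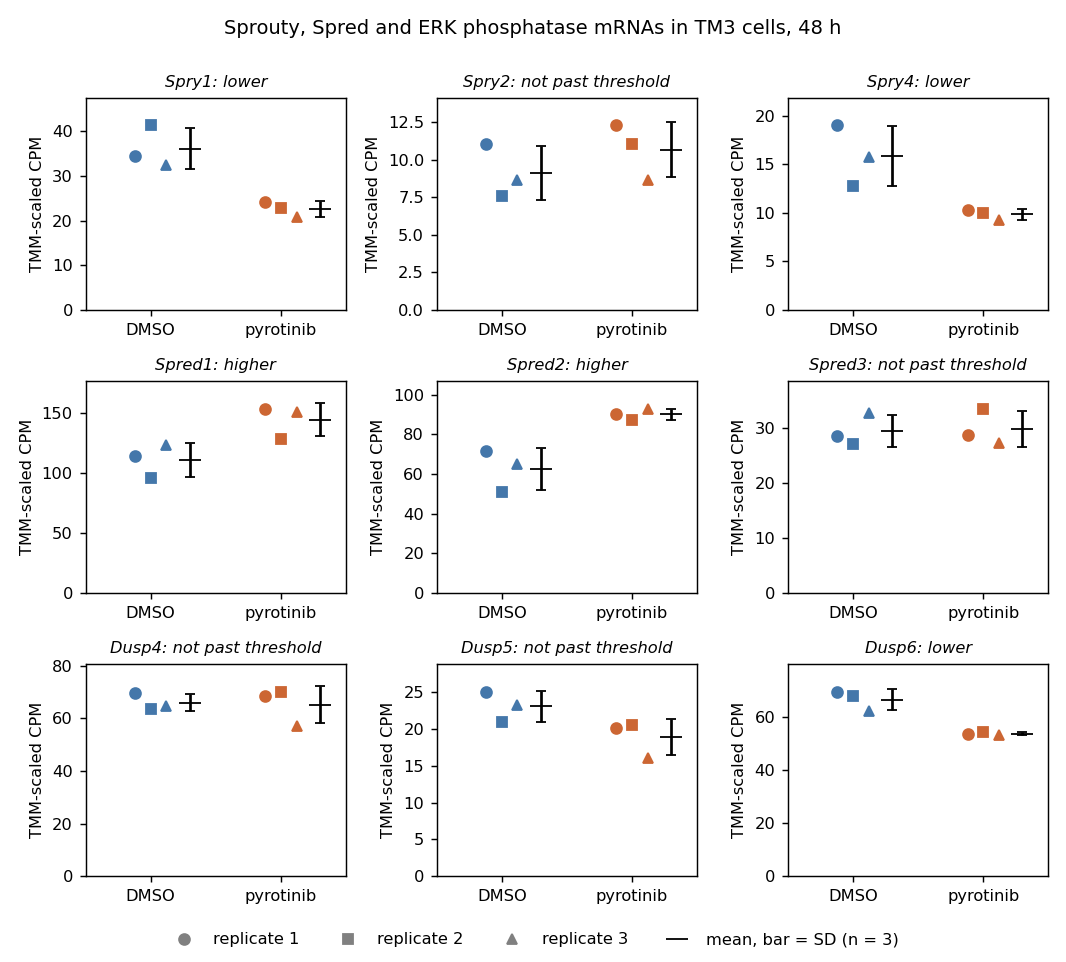
TMM-scaled CPM (vertical axes, from 0) of the 9 genes in each DMSO (blue) and pyrotinib (orange) library, with marker shapes for the replicates and black bars for mean ± SD of 3 libraries. Spry1, Spry4 and Dusp6 lie lower in every pyrotinib library than in any DMSO library, and Spred1 and Spred2 higher.

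Spry1, an inhibitor of receptor tyrosine kinase signalling that binds adaptor proteins, lies on chromosome 3 at 37639947 to 37644598 (mm10, ENSMUSG00000037211). It gave 34.4, 41.3 and 32.5 CPM in DMSO replicates 1, 2 and 3 and 24.2, 22.7 and 20.7 CPM in pyrotinib replicates 1, 2 and 3. The pyrotinib libraries lay close together and all below the lowest DMSO library, and DMSO replicate 2 was the highest of the 6. The mean went from 36.1 ± 4.61 to 22.5 ± 1.73 CPM (SD, n = 3 each), a log2 fold change of -0.68 ± 0.12 SE by edgeR (adjusted p = 0.000597). It was -0.66 in pyrotinib replicate 2 alone and -0.45 with a GC correction and without DMSO replicate 2, and it was past the threshold in all 19 alternative analyses (adjusted p from 1.1e-06 to 0.047), among them the fit with 1 treated library.

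Spry4, a family member that binds the kinase TESK1, is on chromosome 18 at 38586268 to 38601268 (ENSMUSG00000024427). It gave 19.0, 12.8 and 15.8 CPM in the control libraries and 10.3, 9.95 and 9.23 in the treated ones. DMSO libraries spread over a wider range than the pyrotinib libraries, but the lowest of them, replicate 2, still exceeded every pyrotinib library. The mean of Spry4 fell from 15.9 ± 3.09 CPM to 9.83 ± 0.544, which in edgeR gave a log2 fold change of -0.69 ± 0.16 SE with adjusted p = 0.00409. Here DMSO replicate 2 stood on the side of pyrotinib, whereas for Spry1 it stood on the far side. With pyrotinib replicate 2 alone the log2 fold change was -0.67 but did not pass (adjusted p = 0.078, over a range of 0.000224 to 0.105 in 19 alternatives).

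Spry2, the Sprouty protein best known for binding the ubiquitin ligase CBL and GRB2, is on chromosome 14 at 105891947 to 105896819 (ENSMUSG00000022114). It gave 11.1, 7.55 and 8.67 CPM with DMSO and 12.3, 11.1 and 8.67 with pyrotinib. The groups overlapped, with pyrotinib replicate 3 level with DMSO replicate 3. The log2 fold change was 0.23 ± 0.18 SE (adjusted p = 0.363 by edgeR), with a 95% interval of 0.904-fold to 1.53-fold. Whether Spry2 differed from Spry1 or Spry4 in its response was not tested. Spry2 passed in none of the 19 alternatives.

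Spred2, which binds neurofibromin and restrains RAS, is on chromosome 11 at 19924375 to 20024026 (ENSMUSG00000045671). It gave 71.7, 51.1 and 65.1 CPM with DMSO and 90.3, 87.4 and 93.0 with pyrotinib. Every pyrotinib library was higher than every DMSO library, and DMSO replicate 2 was the lowest of all. Spred2 rose from a mean of 62.7 ± 10.5 CPM to 90.2 ± 2.80, with a log2 fold change in edgeR of 0.53 ± 0.11 SE and adjusted p = 0.00176. The log2 fold change was 0.57 after the GC correction, 0.48 in pyrotinib replicate 2 alone and 0.39 without DMSO replicate 2. The corrected fit gave adjusted p = 0.000439 and the fit that omitted DMSO replicate 2 gave 0.0168, over a range of 4.6e-06 to 0.086 in 19 edgeR, DESeq2 and limma alternatives.

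Spred1, the family member mutated in Legius syndrome in humans, is on chromosome 2 at 117121374 to 117182279 (ENSMUSG00000027351). It gave 114, 95.9 and 123 CPM with DMSO and 154, 129 and 152 with pyrotinib. The groups did not overlap, but pyrotinib replicate 2 lay close to DMSO replicate 3, and the higher pyrotinib values were those of replicates 1 and 3. Spred1 rose from a mean of 111 ± 13.9 CPM to 145 ± 13.9, and edgeR gave a log2 fold change of 0.38 ± 0.10 SE at adjusted p = 0.00974. Its transcript, with 41.2% GC, is the lowest in GC of the 9 genes, and the call was lost with the GC correction (log2 fold change 0.20, adjusted p = 0.067), in pyrotinib replicate 2 alone (0.22, adjusted p = 0.299) and without DMSO replicate 2 (0.28, adjusted p = 0.083), over a range of adjusted p from 0.000599 to 0.319 in 19 alternatives. Spred1 kept its call in 12 of the 19. Among these was the fit with both the GC correction and the replicate number as a block (0.20, adjusted p = 0.024). The part of the GC trend in this rise was not tested further.

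Spred3, whose KIT-binding region is altered relative to the other Spred proteins, is on chromosome 7 at 29158829 to 29170411 (ENSMUSG00000037239). It gave 28.6, 27.1 and 32.9 CPM with DMSO and 28.8, 33.6 and 27.4 with pyrotinib, so the groups covered nearly the same range. The log2 fold change was 0.02 ± 0.12 SE (adjusted p = 0.927 by edgeR), with a 95% interval of 0.854-fold to 1.20-fold. Spred3 overlaps Ggn on the opposite strand, which had 223 reads against 2814 for Spred3 over the 6 libraries. The library protocol names no step that marks strand and the strand setting is not given, so how reads in their shared sequence were assigned is not known. Spry1 and Spry4 also overlap genes on the opposite strand. These had 10 reads for Gm42922 at Spry1, and 8 for Gm27804 and 0 for Gm27369 at Spry4.

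Dusp6, a cytoplasmic phosphatase specific for ERK, is on chromosome 10 at 99263231 to 99267489 (ENSMUSG00000019960). It gave 69.3, 67.8 and 62.0 CPM with DMSO and 53.6, 54.3 and 53.0 with pyrotinib. The pyrotinib libraries were nearly equal and all below the DMSO libraries. Dusp6 fell from a mean of 66.4 ± 3.85 CPM to 53.6 ± 0.621, and its log2 fold change in edgeR was -0.31 ± 0.09 SE at adjusted p = 0.0163. Its log2 fold change was -0.32 after the GC correction (adjusted p = 0.0046) and -0.29 in pyrotinib replicate 2 alone (adjusted p = 0.132). The value stayed within -0.36 to -0.28 when single libraries were left out, but the call was lost without DMSO replicate 1 or 2 (adjusted p = 0.072 and 0.065) and without pyrotinib replicate 1 or 3 (adjusted p = 0.052 and 0.060), over a range of adjusted p from 0.0021 to 0.132 in 19 alternatives.

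Dusp5, a nuclear phosphatase specific for ERK, is on chromosome 19 at 53529109 to 53542431 (ENSMUSG00000034765). It gave 25.0, 20.9 and 23.2 CPM with DMSO and 20.1, 20.5 and 16.1 with pyrotinib. The groups did not overlap, but by a small margin between DMSO replicate 2 and pyrotinib replicate 2. The log2 fold change was -0.29 ± 0.13 SE and did not pass (adjusted p = 0.109 by edgeR). It was -0.16 after the GC correction, and it passed only without pyrotinib replicate 2 (-0.34, adjusted p = 0.0486, over a range of 0.0486 to 0.563 in 19 alternatives).

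Dusp4, a nuclear phosphatase that acts on ERK and on other MAP kinases, is on chromosome 8 at 34807297 to 34819894 (ENSMUSG00000031530). It gave 69.7, 63.7 and 64.8 CPM with DMSO and 68.5, 70.1 and 57.1 with pyrotinib. The pyrotinib libraries spanned the whole range of the DMSO libraries. The log2 fold change was -0.02 ± 0.10 SE (adjusted p = 0.911 by edgeR), with a 95% interval of 0.859-fold to 1.14-fold. Dusp4 passed in none of the 19 alternatives. Whether Dusp6 differed from Dusp4, or Spry1 from Spry2, in its response was not tested.

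**Figure D2:**
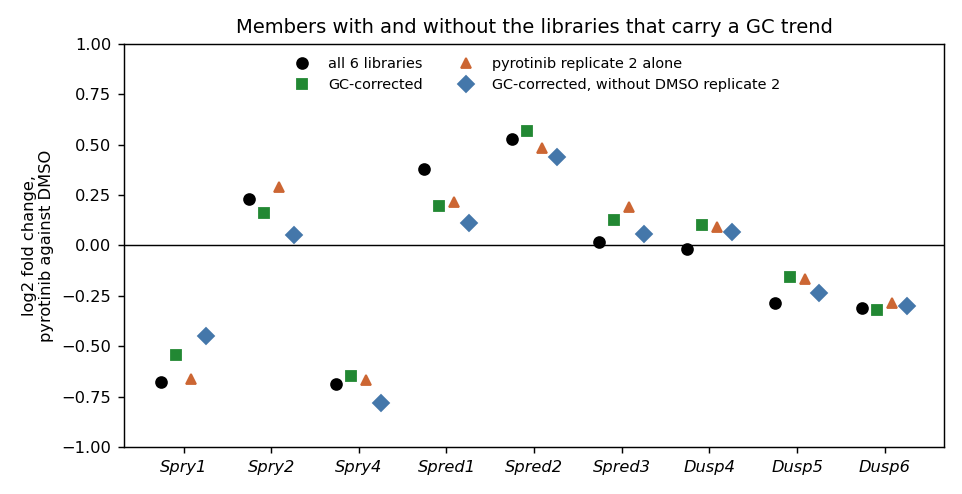
Log2 fold change, pyrotinib against DMSO (vertical axis), of the 9 genes over all 6 libraries (black circles), with the GC correction (green squares), in pyrotinib replicate 2 alone against DMSO (orange triangles) and with the GC correction without DMSO replicate 2 (blue diamonds). Spry1, Spry4 and Dusp6 stay below 0 and Spred1 and Spred2 above 0 in all 4, while Spred1 goes from 0.38 to between 0.11 and 0.22.

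Levels can be compared between genes only per length, for which the deposited FPKM (fragments per kilobase, scaled to library size) was used. With DMSO, Dusp4 was the most abundant of the group at 24.8 ± 1.17 FPKM, followed by Dusp6 at 21.8 ± 1.26 and Spred1 at 16.8 ± 2.09. Spred2 came next at 13.9 ± 2.31 FPKM, Spry1 at 12.8 ± 1.65 and Dusp5 at 9.56 ± 0.844. Spred3, Spry2 and Spry4 were the lowest at 4.88 ± 0.489, 4.47 ± 0.875 and 3.55 ± 0.687 FPKM (SD, n = 3 each). The library ranges of neighbours overlapped for Spred1 with Spred2, Spred2 with Spry1, Spred3 with Spry2 and Spry2 with Spry4, so those places in the order are not distinguished by their spread. Among 11755 tested protein-coding genes, the DMSO level of Dusp4 stood at the 84.3rd percentile and that of Spry4 at the 32.4th. With pyrotinib, Spred1 at 21.6 ± 2.14 and Spred2 at 19.8 ± 0.649 FPKM took the places behind Dusp4 by their means, and Dusp6 moved from place 2 to place 4 at 17.4 ± 0.174 FPKM. The pyrotinib ranges of Dusp4 (21.1 to 25.9 FPKM) and Spred1 (19.2 to 23.1) overlapped, and Spred1 exceeded Dusp4 in replicate 3. That of Spred2 (19.1 to 20.4) overlapped Spred1. Ranges with pyrotinib also overlapped for Spry1 with Dusp5 and for Spry2 with Spred3. No GC correction was applied to these FPKM values. Counts per kilobase of the deposited gene length gave the same order in each group.

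**Figure D3:**
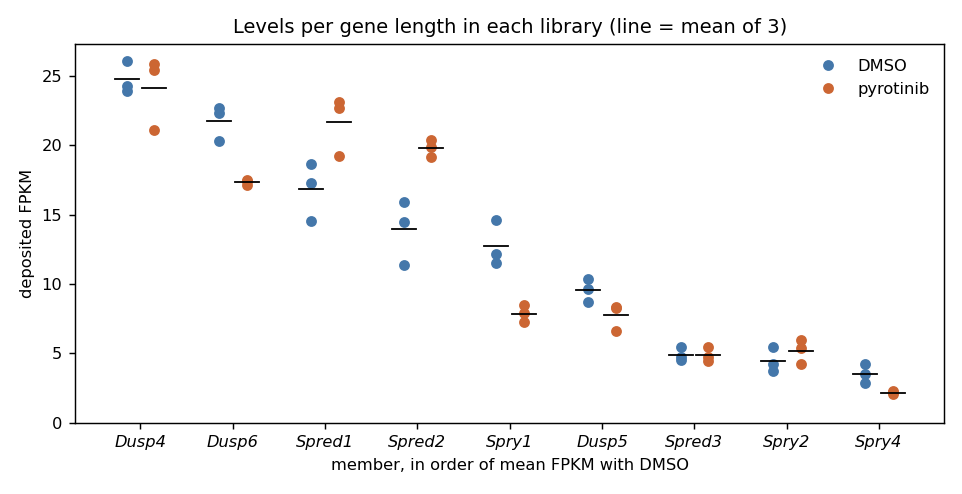
Deposited FPKM (vertical axis, from 0) of the 9 genes in each DMSO (blue) and pyrotinib (orange) library, ordered by the DMSO mean, with black lines for the mean of 3 libraries. The mean of Dusp4 is highest in both groups, with Spred1 above it in pyrotinib replicate 3, and Dusp6 lies below Spred1 and Spred2 with pyrotinib.

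Summed levels per family give their balance within each library. The summed FPKM of Spry1, Spry2 and Spry4 was 21.8, 21.2 and 19.3 in DMSO replicates 1, 2 and 3 and 16.7, 15.5 and 13.5 in pyrotinib replicates 1, 2 and 3. The summed FPKM of Spred1, Spred2 and Spred3 was 37.9, 30.4 and 38.6 with DMSO and 47.7, 43.8 and 47.5 with pyrotinib. Neither sum overlapped between the groups. The ratio of Spred to Sprouty mRNA was 1.74, 1.43 and 2.00 with DMSO and 2.85, 2.83 and 3.52 with pyrotinib. Pyrotinib replicate 3 had the highest ratio, and the part of the GC trend in these ratios was not tested. The 3 phosphatase genes summed to 59.1, 54.9 and 54.2 FPKM with DMSO and 51.1, 51.7 and 44.9 with pyrotinib, again without overlap, and Dusp4, which did not pass the test, was the largest part of that sum. These sums describe the genes already named and carry no test of their own.

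**Figure D4:**
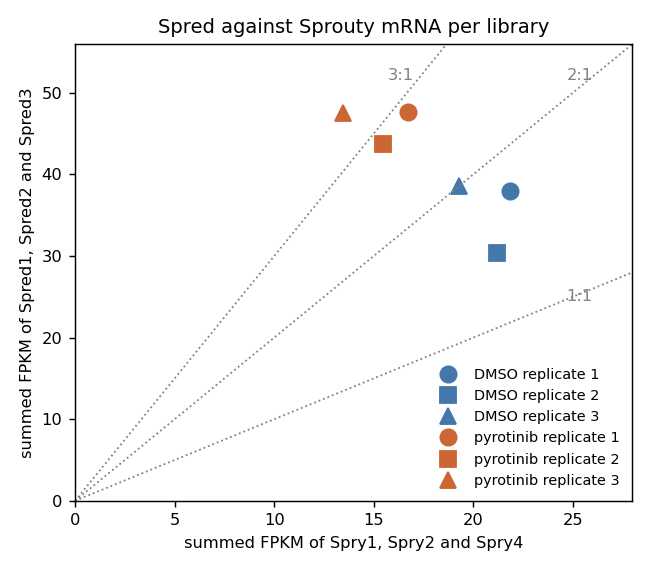
Summed FPKM of the 3 Spred genes (vertical axis) against that of the 3 Sprouty genes (horizontal axis) in each DMSO (blue) and pyrotinib (orange) library, with dotted lines at fixed ratios. DMSO libraries lie at ratios of 1.43 to 2.00 and pyrotinib libraries at 2.83 to 3.52.

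The remaining MAP kinase phosphatase and Sprouty genes showed no call. Of Spry3, Dusp1, Dusp2, Dusp7, Dusp8, Dusp9, Dusp10 and Dusp16, 7 were tested and 0 passed in edgeR or in DESeq2, with 2 at an unadjusted p under 0.05 in edgeR and a median log2 fold change of -0.04. No read of Dusp2 was counted. The smallest p belonged to Dusp10, a phosphatase of the stress kinases, at 32.2 ± 2.58 and 27.1 ± 1.25 CPM (log2 fold change -0.25, adjusted p = 0.097 by edgeR). It passed after the GC correction (-0.28, adjusted p = 0.043, over a range of 0.035 to 0.309 in 19 alternatives). Dusp7, a cytoplasmic ERK phosphatase related to Dusp6, gave 34.3 ± 1.01 and 28.3 ± 4.95 CPM (log2 fold change -0.28, adjusted p = 0.098 by edgeR). It passed without pyrotinib replicate 1 (-0.42, adjusted p = 0.024) and its log2 fold change was -0.14 once corrected for GC and -0.17 when pyrotinib replicate 3 was left out, over a range of adjusted p from 0.024 to 0.542. Dusp8 and Dusp16, phosphatases of JNK and its relatives, had log2 fold changes of 0.41 and 0.11 (adjusted p = 0.217 and 0.418 by edgeR).

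Partners of Sprouty and Spred proteins and other brakes on the pathway moved both ways. Of 20 such genes, 5 rose and 4 fell by edgeR (26.0% of all genes tested were called), with a median log2 fold change of 0.06. Errfi1, a cytoplasmic inhibitor of EGFR, went from 61.9, 52.0 and 55.7 CPM with DMSO to 87.6, 87.6 and 88.9 with pyrotinib (adjusted p = 9.5e-05 by edgeR), so this feedback inhibitor rose while Spry1 and Spry4 fell. Rasa1, a RAS GTPase-activating protein, rose 1.40-fold (adjusted p = 0.00107), and Cav1, the caveolar protein that binds Sprouty proteins, rose 1.27-fold (adjusted p = 0.00332). The transmembrane ErbB inhibitor Lrig1 fell 1.29-fold (adjusted p = 0.00279). These 4 passed in each of the 6 fits that left out 1 library. In pyrotinib replicate 2 alone Rasa1, Cav1 and Lrig1 did not pass (adjusted p = 0.067, 0.054 and 0.062), and the GC correction took the log2 fold change of Rasa1 from 0.49 to 0.32 and that of Cav1 from 0.34 to 0.20. Rasa1 and Cav1 also missed the threshold on unfiltered FPKM (adjusted p = 0.064 and 0.079). Over the 19 alternatives adjusted p ran from 8.9e-09 to 0.034 for Errfi1, 1.07e-05 to 0.067 for Rasa1, 0.000112 to 0.079 for Cav1 and 0.000107 to 0.062 for Lrig1. Rasa2, a relative of Rasa1, rose 1.31-fold and Cbl, the ubiquitin ligase that Sprouty proteins bind, 1.22-fold, while the RAF inhibitor Pebp1 fell 1.47-fold, the ERK-binding protein Pea15a 1.26-fold and Rasa3 1.20-fold. Their calls each failed without DMSO replicate 2 and without pyrotinib replicate 3. Over the fits without a single library, adjusted p reached 0.140, 0.190, 0.062, 0.102 and 0.153 for Rasa2, Cbl, Pebp1, Pea15a and Rasa3. In pyrotinib replicate 2 alone their log2 fold changes were 0.10, 0.13, -0.17, -0.23 and -0.10. Over all libraries these were 0.39, 0.29, -0.56, -0.34 and -0.26. All missed the threshold on FPKM, filtered or not. The Pebp1 call was also lost in DESeq2 (adjusted p = 0.099), and the Rasa2 call with the GC correction (0.16, adjusted p = 0.267). CPM ranges of the groups overlapped for Pebp1 and Cbl. Nf1, the gene of neurofibromin, gave 339, 338 and 340 CPM with DMSO and 374, 326 and 377 with pyrotinib, with the 2 higher values in the libraries with a GC trend (log2 fold change 0.08, adjusted p = 0.488 by edgeR; chosen after its values were seen, as the partner of the Spred proteins).

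Other genes induced by ERK did not move as a block. Of 11, 4 fell and 2 rose by edgeR (12.8% and 13.2% of all genes tested did), with a median log2 fold change of -0.21. Egr1, Fos and Ier3, immediate early genes, fell 2.23-fold, 2.31-fold and 1.93-fold (adjusted p = 2.7e-07, 0.00022 and 1.9e-05 by edgeR). Each fell by more than Spry1 or Spry4, though that difference was not tested. The receptor gene Epha2 fell 1.29-fold (adjusted p = 0.00721 by edgeR). Its log2 fold change was -0.36, and -0.23 in pyrotinib replicate 2 alone. Among the alternatives with more than 1 treated library, the Epha2 call was lost in these fits: without pyrotinib replicate 3 (adjusted p = 0.060 by edgeR) and on unfiltered FPKM (adjusted p = 0.084 by limma). Ccnd1, the G1 cyclin, rose 1.39-fold and Fosl1, an AP-1 subunit that ERK induces and stabilises, 1.86-fold (adjusted p = 0.000698 and 0.00071 by edgeR). Fos and Fosl1 missed the threshold on unfiltered FPKM (adjusted p = 0.052 and 0.067). The ETS factor genes Etv4 and Etv5, often read together with Spry4 and Dusp6, gave log2 fold changes of 0.05 and 0.20 (adjusted p = 0.875 and 0.471; named after their values were seen).

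Among 14 receptor, RAS and kinase genes upstream, 13 were tested, 3 rose and 2 fell by edgeR, against 13.2% and 12.8% of all genes tested. Erbb3 rose 1.52-fold, Nras 1.37-fold and Araf 1.25-fold, while Mapk3, which encodes the kinase ERK1, fell 1.46-fold and Hras 1.39-fold. In pyrotinib replicate 2 alone none of the 5 passed (adjusted p = 0.054, 0.060, 0.080, 0.089 and 0.491 for Erbb3, Nras, Araf, Mapk3 and Hras), and the log2 fold change of Mapk3 was -0.30 there against -0.54 over all libraries. Erbb3, Nras, Mapk3 and Hras also missed the threshold on unfiltered FPKM (adjusted p = 0.147, 0.063, 0.070 and 0.134). Erbb3 and Hras missed it on filtered FPKM too, with adjusted p = 0.057 each at a pseudocount of 1. At a pseudocount of 0.1 these were 0.053 and 0.057. Over the 19 alternatives adjusted p ran from 0.0033 to 0.147 for Erbb3, 0.000285 to 0.063 for Nras, 0.0022 to 0.080 for Araf, 1.1e-07 to 0.089 for Mapk3 and 0.0013 to 0.491 for Hras. The Araf call was lost without DMSO replicate 3 (adjusted p = 0.056), and the Hras call when any library but DMSO replicate 1 or pyrotinib replicate 2 was left out (adjusted p up to 0.104). Egfr, the most abundant drug target here, gave 669 ± 20.8 and 674 ± 26.9 CPM (adjusted p = 0.923), and Erbb2 70.2 ± 8.24 and 84.9 ± 8.86 (log2 fold change 0.28, adjusted p = 0.055). Erbb2 passed in 6 of the 19 alternatives, with a log2 fold change of 0.41 after the GC correction (adjusted p = 0.00193) and 0.44 in pyrotinib replicate 2 alone (adjusted p = 0.035, over a range of 0.000274 to 0.294). No read of Erbb4 was counted.

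**Figure D5:**
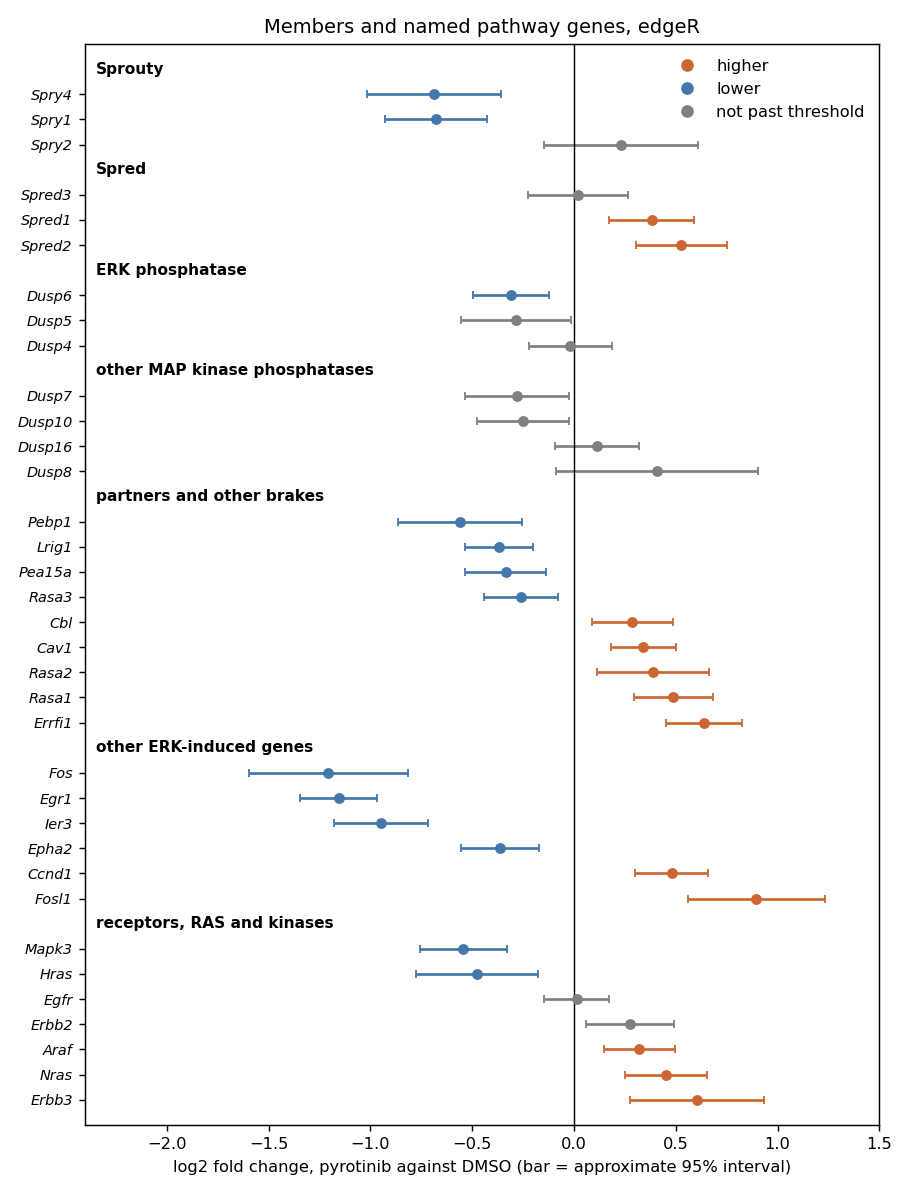
Log2 fold change, pyrotinib against DMSO (horizontal axis), of the 9 genes and 26 named pathway genes by edgeR, with bars for approximate 95% intervals and colours for higher (orange), lower (blue) and not past the threshold (grey). Calls lie on both sides of 0 in the lists of partners and other brakes, of other ERK-induced genes and of receptors, RAS and kinases.

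The genes most like each called member over the 6 libraries were found by Pearson's r of log2 CPM among 9760 protein-coding genes with at least 5 CPM. For Spry1 they were Srrm1, Nudt13 and Epn2 (r of 0.999, 0.999 and 0.998), and for Spry4 Fnip2, Kif5a and Terf1 (0.996, 0.990 and 0.990). For Spred2 they were Arhgef5, Gas1 and Smim19 (1.00, 0.998 and 0.997), for Spred1 Tbc1d24, Zup1 and Usp53 (0.996, 0.995 and 0.993), and for Dusp6 Sipa1l2, Tmbim6 and Ddx19b (0.995, 0.994 and 0.993). With 6 libraries in 2 groups such values are common: the gene in 100th place still had r of 0.976 for Spry1 and 0.921 for Spry4. The r values are a description over libraries that share the group difference.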

How the data were processed

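RNA from 6 TM3 libraries was sequenced as poly(A) RNA in paired reads of 150 bp, per the labels' protocols. The deposited count table gives whole reads per gene, and the submitters' processing notes name build mm10 with DESeq2 1.20.0, featureCounts 1.5.0-p3, fastp and HISAT2 2.0.5. What each tool did, the annotation and the strand setting: not given in the sources used here. Levels per length came from the deposited FPKM table and its gene lengths, per the file headers, which also served as an alternative.

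Counts were tested in R 4.3.3 with edgeR 4.0.16: filterByExpr defaults (minimum count 10, minimum total 15), TMM scaling, and the two-sided quasi-likelihood F-test of group alone, with Benjamini-Hochberg adjustment over 14125 genes and a threshold of 0.05. The SE was approximated from the log2 fold change and the F statistic, and intervals are approximate 95% intervals from it. The test was run on simulated counts with no GC trend and no library standing apart, so that run does not bear on those features here. Alternatives used DESeq2 1.42.0 and limma 3.58.1 (log2 of FPKM with a pseudocount of 1 or 0.1). GC content came from the longest GENCODE M21 transcript, with a lowess span of 0.3. Replicates of a group differed by more than sampling noise (chi-square per degree of freedom of 4.16 to 16.3). Named are all 9 genes, the 4 genes of lowest adjusted p in each list or those a small count refers to, and the 3 genes most like each. The members and lists were chosen with earlier results of these data known.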

Additional observations from a re-analysis of the deposited data

How the results depend on the processing

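Directions of the 5 called members held in all 19 alternative analyses; Spry1 also kept its call in all of them. Members higher and lower numbered 2 and 3, and 1 and 3 with the GC correction, with or without DMSO replicate 2 (the latter chosen after seeing the data). They were 1 and 3 on log2(FPKM + 1) or log2(FPKM + 0.1) where the mean was 0.5 FPKM or more, 0 and 2 on log2(FPKM + 1) with no filter, and 1 and 1 in pyrotinib replicate 2 alone, also chosen after seeing the data. In fits without 1 library they were 1 to 2 and 2 to 4. The fit of replicate 2 alone takes its spread from the DMSO libraries. Calls were lost for Spred1 with the GC correction (log2 fold change 0.20, and 0.11 also without DMSO replicate 2), in replicate 2 alone (0.22) and on FPKM (0.35 with a pseudocount of 1, with and without the filter, and 0.36 with 0.1). They were also lost for Spred2 (0.49) and Spry4 (-0.51) on unfiltered FPKM, and in replicate 2 alone for Spry4 (-0.67) and Dusp6 (-0.29). The cause was not tested. Without 1 library, log2 fold changes ran from 0.28 to 0.46 for Spred1, -0.36 to -0.28 for Dusp6 and -0.36 to -0.18 for Dusp5, which was called in 1 such fit. Spry2 had the fewest reads of the 9, 118 to 192 per library, and the widest interval; counting error and variation between libraries were not separated.

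Over all genes, 1862 were higher and 1805 lower. These counts were 916 and 1263 on log2(FPKM + 1) with the filter, 927 and 1258 with a pseudocount of 0.1, 224 and 337 with no filter, 529 and 526 in replicate 2 alone, and 1179 and 1381 with the GC correction without DMSO replicate 2. Without 1 library they ran from 968 to 2615 and from 988 to 2611. On unfiltered FPKM 39.9% of calls were higher, against 50.8% in edgeR.

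Of partners and other brakes, 5 rose and 4 fell; the numbers were 3 and 1 on filtered FPKM at either pseudocount, 1 and 1 on unfiltered FPKM, 1 and 0 in replicate 2 alone, 3 and 3 with the GC correction without DMSO replicate 2, and 3 to 6 and 1 to 6 without 1 library. Of other ERK-induced genes, 2 rose and 4 fell, and 1 and 2 did on unfiltered FPKM. Of receptors, RAS and kinases, 3 rose and 2 fell. They were 5 and 3 with the GC correction, 2 and 1 on filtered FPKM, 1 and 0 on unfiltered FPKM and in replicate 2 alone, 4 and 1 with the GC correction without DMSO replicate 2, and 2 to 5 and 1 to 3 without 1 library. Of other phosphatases and Spry3, none rose or fell in edgeR or DESeq2; 1 fell with the GC correction, with or without DMSO replicate 2, and 0 to 1 fell without 1 library.

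Same-numbered libraries deviated from their group means with correlations of 0.00498, 0.0760 and 0.0226, and not every library correlated best with its own number, so the numbers were not taken as pairs. With the replicate number as a block, 2 members rose and 3 fell, 2124 genes were higher and 2141 lower, and 5 receptor, RAS and kinase genes rose. With the block and the GC correction, 5 of these rose and 3 fell, and 1 other phosphatase rose and 1 fell. Spred1 kept its call in that fit (log2 fold change 0.20).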
